A study of Mus musculus with 6 samples.

Results

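The genes described here are the transcription factors of the YAP/TAZ-TEAD complex and 4 of the genes it is known to control. They comprise the coactivators *Yap1* and *Wwtr1* (the gene of TAZ), the DNA-binding partners *Tead1*, *Tead2*, *Tead3* and *Tead4*, the targets *Ctgf* and *Cyr61*, and the pathway regulators *Amotl2* and *Lats2*, themselves also targets. They were chosen by name for their place in the pathway and make up 10 of the 59485 genes in the deposited table. *Ctgf* and *Cyr61* are the older symbols of *Ccn2* and *Ccn1*, and *Wwtr1* is distinct from the mouse gene *Taz*, which encodes tafazzin. The study sequenced poly-A RNA from whole sciatic nerves at postnatal day 4 (P4), in 3 control and 3 mutant mice with 1 library each. Mutants were *HtPA-Cre;Adar1*fl/fl*;R26R*, in which Cre under the human tissue plasminogen promoter recombines both floxed *Adar1* alleles in neural crest (NC) derivatives such as Schwann cells (SCs). Controls carry the label wild-type, a term that the methods use for *Adar1*fl/fl or *Adar1*fl/+ animals with *R26R* and no Cre, and *R26R* is a YFP reporter of recombined cells that all animals carry. Cells of the nerve that do not come from the NC, such as those of vessels and blood, keep the gene, so every value is a sum over cell types, and fewer cells of a type cannot be told apart from less RNA per cell.

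In the Hippo pathway, the kinases MST1/2 and then LATS1/2 phosphorylate YAP and TAZ, which keeps both out of the nucleus. Unphosphorylated YAP and TAZ enter the nucleus and bind TEAD proteins, which recognize the bases GGAATG in DNA, and the complex switches on genes such as *Ctgf* and *Cyr61* together with its own inhibitors. In SCs, YAP and TAZ are known to be needed for radial sorting of axons and for myelination, and *Ctgf* and *Cyr61* are widely read as a measure of their activity. Transcript values show neither phosphorylation nor the place of a protein in the cell.

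The sequences below show the TEAD-type bases in the promoters of the genes, since these link factors and targets on the same letters. RefSeq promoters (250 bases before to 50 after a start site) matched 7 of the 10 genes through 11 entries, and *Ctgf*, *Tead1* and *Tead4* had none. GGAATG, searched on both strands so that CATTCC also counts, occurred in 8 of these 11 entries (72.7%), belonging to *Yap1*, *Wwtr1*, *Tead3*, *Cyr61*, *Amotl2* and *Lats2*. Over all 32851 promoters of the same length, 14.7% held it. The entries are not independent, as the *Wwtr1* entries hold 1 shared match (136 and 170 bases before their start sites). By gene, 6 of the 7 with an entry held GGAATG. The AP-1-type letters TGANTCA, which can share end letters with GGAATG, occurred in none of the entries of the 10 genes and in 7.81% of all promoters. Each line gives 30 bases in the direction of the gene, with the match in capitals, and a match is a description of the letters and not of a bound site.
Cyr61: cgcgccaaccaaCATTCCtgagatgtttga
Amotl2: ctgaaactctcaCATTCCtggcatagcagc
Yap1: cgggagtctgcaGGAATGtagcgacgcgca
Wwtr1: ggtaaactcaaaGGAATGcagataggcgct
Tead3: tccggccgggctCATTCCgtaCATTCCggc

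On GRCm38.p6, the *Cyr61* stretch is chr3:145650071-145650100 (minus strand), with its match starting 103 bases before the start site. The *Amotl2* stretch is chr9:102717727-102717756 (plus strand), 65 bases before a start site, and it lies in an exon of a longer *Amotl2* transcript. For *Yap1* the stretch is chr9:8004720-8004749 (minus strand) at 141 bases, and for *Wwtr1* chr3:57576029-57576058 (minus strand) at 136 bases, both outside annotated exons. The *Tead3* stretch is chr17:28350706-28350735 (minus strand), inside an exon of another *Tead3* transcript, with paired matches starting 123 and 114 bases before the start site.

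Library facts bear on every value below. Libraries had 50.9 to 78.3 M counted reads, and all values were whole multiples of what 1 read is worth, 0.727 to 1.27. *Adar*, the targeted gene, was higher in the mutant-labelled libraries (9311 to 11768 against 1133 to 2066, log2 fold change 2.72, limma adjusted p = 4.1e-05), which goes against the deletion in the labels. The table gives 1 value a gene, so reads from the deleted segment cannot be told from the rest, and the groups are called control-labelled and mutant-labelled. The test was limma on log2(value + 1), and *rose* and *fell* are used for a Benjamini-Hochberg adjusted p at or under 0.05 over all 25802 tested genes. The limits of the study's methods were 0.05 for the p-value, with no adjustment named, and 2-fold for the change. Here they are applied to the unadjusted limma p.

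Most of the targets rose and most of the factors did not pass the test. *Ctgf* was 4.20-fold, *Cyr61* 2.85-fold and *Amotl2* 1.57-fold higher in mutant-labelled nerves, *Tead4* was 2.89-fold lower, and the other 6 genes had adjusted p-values over 0.05. All 10 genes passed the filter on low values. With 3 that rose and 1 that fell, 40% were called, where 35.0% of all tested genes were called, 19.0% higher and 16.0% lower. *Ctgf*, *Cyr61* and *Tead4* also passed the study's limits, as 24.2% of all tested genes did. The 3 values of one genotype lay entirely to one side of the other in 6 of the 10 genes, where 49.2% of all tested genes showed the same. The counts over the 10 genes are thus close to those over the whole table, and the median log2 fold change of 0.11 stood beside 0.03 for all genes. The 3 that rose were among the 4 targets and the 1 that fell among the 6 factors, a difference that was not tested. *Lats2* has no value of its own, being listed together with *Xpo4*, and without this joint entry 44.4% of 9 genes were called, 33.3% rose and the median was 0.18.

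**Figure D1:**
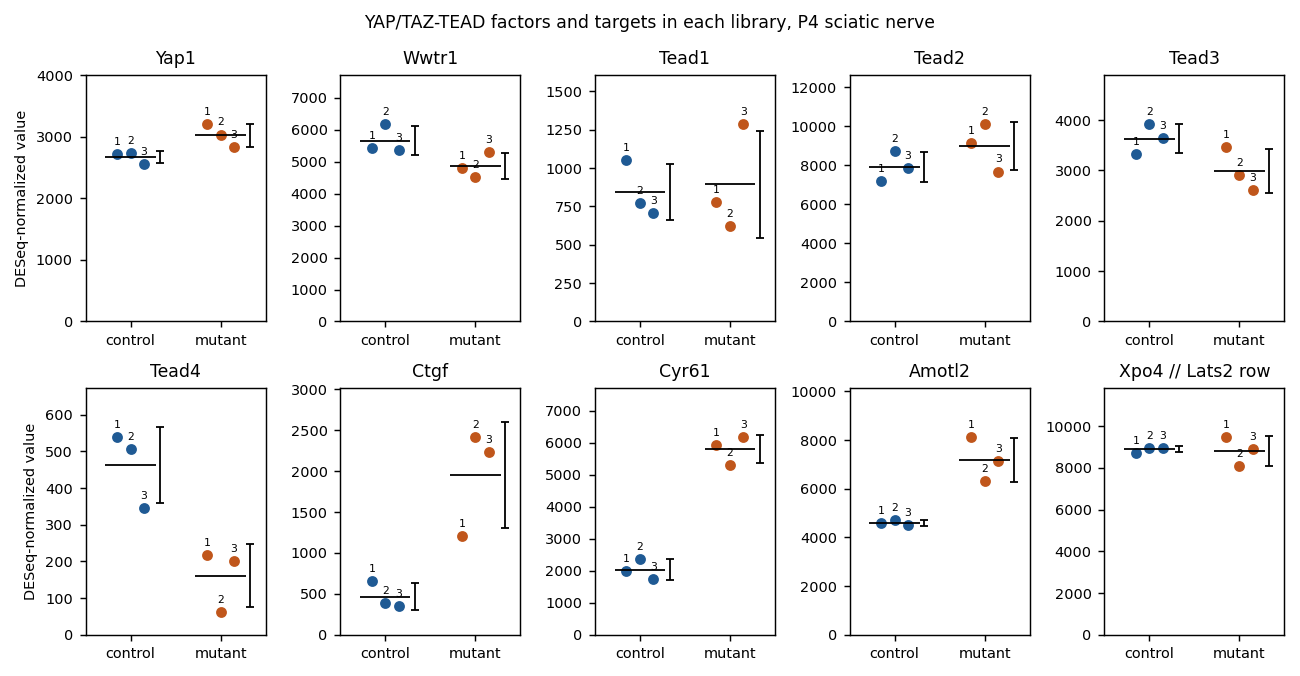
Normalized value (y axis, from 0) of each of the 10 genes in each library, with numbered points for the 3 control-labelled (blue) and 3 mutant-labelled (orange) libraries, a line for the mean and a bar for its SD. *Ctgf*, *Cyr61* and *Amotl2* lie higher and *Tead4* lower in every mutant-labelled library, while *Tead1*, *Tead2* and *Tead3* overlap between the genotypes.

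*Yap1*, the gene of the coactivator YAP, is GSMG0040320 in the table (mm10, chr9:7932003-8004596, minus strand). Its values were 2723, 2730 and 2551 in the control-labelled libraries (always in the order of replicates 1, 2 and 3) and 3209, 3037 and 2836 in the mutant-labelled ones. Every mutant-labelled library was above every control-labelled one, though by little. The log2 fold change was 0.18 (standard error, SE, 0.10; 95% interval -0.04 to 0.40, adjusted p = 0.178). The interval holds no 2-fold change in either direction.

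*Wwtr1* encodes TAZ, the paralog of YAP with the same TEAD-binding function (GSMG0025434, chr3:57455644-57575912, minus strand). It stood at 5422, 6184 and 5363 in the control-labelled libraries and at 4804, 4508 and 5293 in the mutant-labelled ones. Here every mutant-labelled value was below every control-labelled one, the opposite order to *Yap1*, and mutant replicate 3 was close to the lowest controls. The log2 fold change was -0.22 (SE 0.10, 95% interval -0.45 to 0.02, adjusted p = 0.137).

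The ratio of both coactivators within a library does not depend on how libraries are scaled. On the log2 scale, the *Yap1* to *Wwtr1* ratio was -0.99, -1.18 and -1.07 in the control-labelled libraries and -0.58, -0.57 and -0.90 in the mutant-labelled ones. All 3 mutant-labelled ratios were closer to 0, so *Yap1* was higher relative to *Wwtr1* in these libraries. Neither gene was called on its own, and ratios of other gene pairs were not computed. The means differed by 0.40, and a two-sided exact permutation test gave p = 0.1, the smallest that 3 libraries against 3 allow.

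The TEAD proteins carry the DNA-binding domain of the complex, and 1 of the 4 genes was called. *Tead1*, which encodes the TEAD best known from muscle and from SCs (GSMG0035042, chr7:112679318-112906805, plus strand), had values of 1053, 775 and 705 in the control-labelled and 776, 622 and 1288 in the mutant-labelled libraries. The genotypes overlapped fully, with control replicate 1 and mutant replicate 3 above the rest. The log2 fold change was 0.04 with a SE of 0.27 (adjusted p = 0.928). Its sign turned under rescaling to a common 75th percentile (-0.03) and without control replicate 2 (-0.01), control replicate 3 (-0.08) or mutant replicate 3 (-0.26). The attribution of reads is also uncertain, as 2 unnamed genes overlap *Tead1* on its strand (up to 92.6) and 1 on the opposite strand (up to 922.5).

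*Tead2*, known from early embryos and neural precursors (GSMG0034461, chr7:45215753-45233619, plus strand), stood at 7202, 8718 and 7847 in the control-labelled and 9149, 10118 and 7681 in the mutant-labelled libraries. Mutant replicates 1 and 2 were above all controls and mutant replicate 3 was among them. The log2 fold change was 0.18 (SE 0.12, adjusted p = 0.302). *Tead3*, best known from placenta (GSMG0017304, chr17:28331671-28350805, minus strand), stood at 3330, 3924 and 3647 against 3464, 2919 and 2603. Mutant replicates 2 and 3 were below all controls, and the log2 fold change was -0.29 (SE 0.13, adjusted p = 0.117). Without mutant replicate 1 it was -0.40 and called (limma adjusted p = 0.0438), as it was under rescaling to a common 75th percentile (-0.35, adjusted p = 0.0497).

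*Tead4* was the factor that fell. It is known from the first lineage choice of the embryo and from forming muscle (GSMG0033722, chr6:128224288-128300813, minus strand). Its values were 539, 507 and 346 in the control-labelled libraries and 218, 61.8 and 202 in the mutant-labelled ones, so that the lowest control was above the highest mutant-labelled library. The log2 fold change was -1.70 (SE 0.46, adjusted p = 0.0217). This call was lost in fits without control replicate 1 (-1.58, adjusted p = 0.0701) or control replicate 2 (-1.62, adjusted p = 0.0676), and in limma's eBayes without trend (adjusted p = 0.0739).

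The summed *Tead* values were alike in both genotypes, 12864 ± 942 (SD, n = 3) in the control-labelled and 13034 ± 1093 in the mutant-labelled libraries. *Tead2* made up 61.5% ± 1.83 of this sum in the controls and 68.7% ± 4.45 in the mutant-labelled libraries, and *Tead3* 28.2% ± 0.804 and 22.9% ± 2.21. The share of *Tead4* was 3.61% ± 0.843 and 1.26% ± 0.70. For each of these 3 genes the shares did not overlap between genotypes, with p = 0.1 in a two-sided exact permutation test, the smallest possible. Among all tested genes, the values of 49.2% did not overlap either. Shares within a library depend on each other, so they are not separate observations. In level, *Tead2* and *Tead3* overlapped between genotypes and were not called. The share of *Tead1* was 6.62% ± 1.79 and 7.06% ± 3.41 (exact p = 0.8), and the sign of this difference turned when control replicate 2 or 3 or mutant replicate 3 was left out. These shares are of reads and not of molecules, since the genes differ in length.

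**Figure D2:**
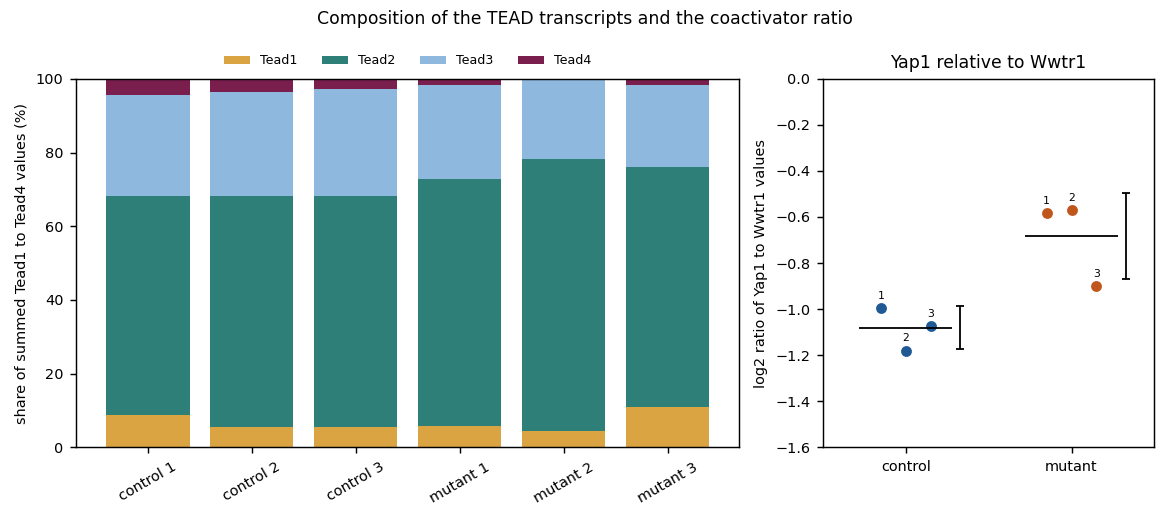
Left, share of the summed *Tead1* to *Tead4* values (y axis, percent) held by each gene in each library. Right, log2 ratio of *Yap1* to *Wwtr1* values by library, with the mean (line) and SD (bar) of each genotype. The share of *Tead2* is 59.4 to 62.6% in control-labelled and 65.2 to 73.7% in mutant-labelled libraries, and the *Yap1* to *Wwtr1* ratio is closer to 0 in all 3 mutant-labelled libraries.

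Levels could not be ranked firmly between the genes, because the lengths of the constitutive regions that the authors counted are not given in the sources used here. Per kilobase of all annotated exon, the control-labelled level of *Wwtr1* (1184 ± 95.9) was above that of *Yap1* (288 ± 10.9). Per kilobase of exon shared by every coding transcript, the order turned, with *Yap1* at 2342 ± 89 and *Wwtr1* at 1271 ± 103. For *Yap1* the shared exons held 1139 of 9257 bases, and for *Tead3* 1413 of 6714. *Tead3* correspondingly went from 541 ± 44.3 to 2572 ± 210 per kb. *Cyr61*, with 1 transcript length of 2019 bases, was at 1009 ± 156 per kb in the control-labelled and 2872 ± 221 in the mutant-labelled libraries by either length. Of the 9 genes with values of their own, 4 had at least 1 kb of shared exon and 3 had none.

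*Cyr61* (CCN1) and *Ctgf* (CCN2) encode secreted matricellular proteins that bind integrins, and both are classical YAP/TAZ targets. *Cyr61* (GSMG0026162, chr3:145646971-145649985, minus strand) was 2003, 2367 and 1741 in the control-labelled and 5920, 5303 and 6172 in the mutant-labelled libraries. The lowest mutant-labelled value was over that of every control by a wide margin, and the libraries of each genotype lay close together. *Cyr61* rose with a log2 fold change of 1.52 (SE 0.13, adjusted p = 7.48e-05), and fits that each left out 1 library gave 1.41 to 1.63. Its promoter stretch with CATTCC is shown above.

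*Ctgf* (GSMG0002808, chr10:24595442-24598685, plus strand) was 654, 385 and 356 in the control-labelled and 1208, 2414 and 2230 in the mutant-labelled libraries. The genotypes did not overlap, but control replicate 1 was above its group and mutant replicate 1 well below its own. *Ctgf* rose with a log2 fold change of 2.06 (SE 0.31, adjusted p = 0.00136). *Ctgf* is also a gene of smooth muscle and fibroblasts, and the smooth muscle markers *Acta2* and *Myh11*, chosen after their values were seen, were likewise highest in control replicate 1 among the controls and lowest in mutant replicate 1 among the mutant-labelled libraries. *Acta2*, smooth muscle actin, was 16145, 4690 and 4235 against 6109, 41160 and 21826, and *Myh11*, the smooth muscle myosin heavy chain, was 244, 14.2 and 17.7 against 48.7, 305 and 346. The other markers of the list did not share this order, as *Pdgfrb* and *Cspg4* were highest in mutant replicate 1 of their genotype and *Rgs5* was lowest in mutant replicate 3. Over the whole list of 5 pericyte and smooth muscle markers, none was called, none was near 0 in every library, and the summed values were 22280 to 41994 in control-labelled and 25932 to 65141 in mutant-labelled libraries. The part of smooth muscle in the *Ctgf* values was not tested.

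*Amotl2* encodes angiomotin-like 2, a junctional protein that holds YAP and TAZ in the cytoplasm and is itself induced by them. It is GSMG0040002 (chr9:102716953-102733417, plus strand) and was 4581, 4704 and 4491 in the control-labelled and 8116, 6307 and 7146 in the mutant-labelled libraries. The controls were tight and all 3 mutant-labelled values lay above them. *Amotl2* rose with a log2 fold change of 0.64 (SE 0.11, adjusted p = 0.00238), which is under the 2-fold limit. The other angiomotins had adjusted p-values over 0.05, with log2 fold changes of 0.43 for *Amotl1* (adjusted p = 0.145) and 0.53 for *Amot* (adjusted p = 0.341), a gene with values of at most 74.2.

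*Lats2*, the gene of a kinase that phosphorylates YAP and TAZ, shares a table entry with its neighbor *Xpo4*, an exportin (GSMG0012470, chr14:57580999-57746123, minus strand), and its reads cannot be told from those of *Xpo4*. The joint values were 8725, 8977 and 8973 in the control-labelled and 9472, 8078 and 8890 in the mutant-labelled libraries. The control values lay within the range of the mutant-labelled ones. The log2 fold change was -0.02 (SE 0.09, adjusted p = 0.908), with a sign that turned under rescaling to the same total (0.15) and without mutant replicate 2 (0.05). No statement on *Lats2* alone can be made from the table.

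Most genes of a wider list of 22 general YAP/TAZ targets, which holds *Ctgf*, *Cyr61*, *Amotl2* and *Lats2* as well, passed the test. Of its 22 genes, all tested (*Ankrd1* through its mutant-labelled values alone), 13 rose, 2 fell and 7 were not called, so that 68.2% were called and 59.1% rose, beside 35.0% and 19.0% of all tested genes. The median log2 fold change was 0.80. Without the 4 genes above, 10 of the remaining 18 rose, 2 fell and 6 were not called, with a median of 0.76. Among the 21 genes whose mean reached the filter in both genotypes, 12 rose. These are descriptions of the list and not a test of it against other genes.

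The 6 of these with the largest log2 fold changes were *Ankrd1*, *Gadd45a*, *Foxf2*, *Myof*, *Igfbp3* and *F3*. *Gadd45a*, a stress-inducible inhibitor of growth, was 150, 207 and 242 in the control-labelled and 3628, 3580 and 4612 in the mutant-labelled libraries (log2 fold change 4.31, SE 0.20, adjusted p = 4.37e-06). *Igfbp3*, a secreted carrier of insulin-like growth factors, went from 11720 ± 557 to 80430 ± 5441 (2.78, adjusted p = 1.35e-06). *Myof*, which encodes the membrane protein myoferlin, went from 680.5 ± 80.3 to 5755 ± 1022 (3.07, adjusted p = 6.04e-06). In these 3 genes the lowest mutant-labelled library was several-fold above the highest control.

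*F3*, the gene of tissue factor, which starts blood clotting, went from 243 ± 45.6 to 1468 ± 281 (2.59, adjusted p = 5.43e-05). *Foxf2*, a mesenchymal forkhead factor, was low, at 15.5, 40.6 and 10.1 against 205, 181 and 134 (3.12, SE 0.53, adjusted p = 0.00253). *Ankrd1*, which encodes an ankyrin-repeat protein of strained cardiac and skeletal muscle, was at 6.66, 0 and 1.27 in the control-labelled and 80.7, 122 and 294 in the mutant-labelled libraries (5.79, SE 0.87, adjusted p = 0.00134). *Ankrd1* passed the filter on low values through the mutant-labelled libraries alone, so it could enter the test as a higher gene and in no other way. With so few control reads, the size of the *Ankrd1* change depended on the pseudocount and ranged from 3.64 to 7.19 over the alternatives.

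*Axl*, the gene of a receptor tyrosine kinase that 1 other gene overlaps on its strand, and *Nuak2*, the gene of a kinase related to AMPK, also passed the study's limits. *Axl* went from 20017 ± 2152 to 74729 ± 3101 (1.91, adjusted p = 8.54e-06), and *Nuak2* went from 82.7 ± 13.8 to 255 ± 18.1 (1.62, adjusted p = 0.00156). *Tgfb2*, a growth factor, and *Ccdc80*, a matrix protein, rose by less than 2-fold (log2 fold changes of 0.96 and 0.54, adjusted p = 0.0211 and 0.0491), and 2 and 1 other genes overlap them on their strand. Both calls were near the threshold. *Tgfb2* lost it without control replicate 2 or 3 or mutant replicate 1 or 3 (limma adjusted p up to 0.0736), and *Ccdc80* in 10 of 17 alternatives, among them those without control replicate 1, 2 or 3 or mutant replicate 1 or 2 (up to 0.155). *Arhgef17* fell with a log2 fold change of -0.72 (adjusted p = 0.0108), and *Asap1*, a regulator of Arf GTPases overlapped by 12 other genes on its strand, with one of -0.64 (adjusted p = 0.00135). *Arhgef17* had an adjusted p of 0.0571 in limma's eBayes without trend. The 6 not called beside *Lats2* were *Crim1*, *Fjx1*, *Nt5e*, *Dock5*, *Ptpn14* and *Rbms3*, whose log2 fold changes ran from -0.41 in *Nt5e* to 0.55 in *Dock5*. In RefSeq promoters of the 22 genes, 15 had an entry and 7 of the 17 entries (41.2%) held GGAATG on either strand, beside 14.7% of all promoters. *Amotl2*, *Lats2* and *Cyr61*, already counted above, are among the 7 genes with a match.

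**Figure D3:**
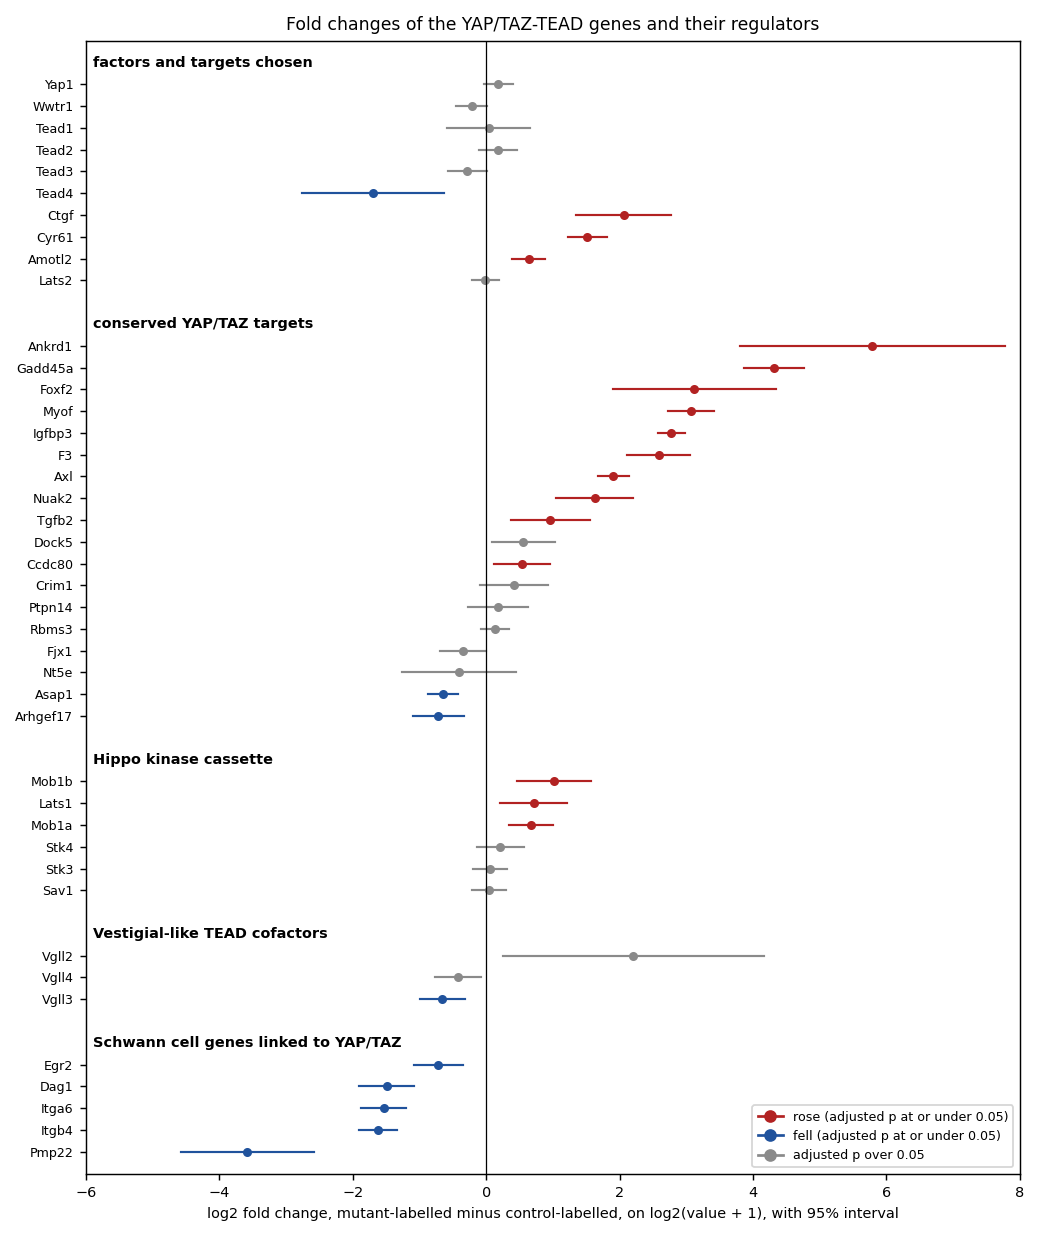
Log2 fold change (x axis, mutant-labelled minus control-labelled, on log2 of the value plus 1) with its 95% interval for the 10 genes, the other 18 general targets, the kinase cassette, the Vestigial-like cofactors and SC genes linked to YAP/TAZ. Red genes rose and blue genes fell at an adjusted p at or under 0.05, and gray genes were not called. The upper target genes extend to 5.79 in *Ankrd1*, while the kinase cassette other than *Lats2* lies between 0.04 and 1.02.

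Most regulators of YAP and TAZ did not pass the test. Together, 31 genes of the kinase cassette, its upstream regulators and the Vestigial-like cofactors were examined, *Lats2* again among them, and 30 were tested. Of these, 5 rose, 4 fell and 21 were not called, which is 30% called, beside the 35.0% of all tested genes. The count of called genes ranged from 4 without control replicate 2 (where 26.1% of all tested genes were called) and 5 in eBayes without trend (27.1%) to 12 with a minimum mean of 50 (46%).

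In the kinase cassette, 3 of 7 genes rose and none fell, beside 19.0% and 16.0% of all tested genes. *Mob1a* and *Mob1b* encode the MOB1 adaptors that activate LATS kinases. *Mob1b* was 92.2, 118 and 103 against 204, 205 and 225 (log2 fold change 1.02, SE 0.24, adjusted p = 0.0118), and it was the sole gene of the cassette past the study's limits, at their edge, since its log2 fold change was under 1 with a pseudocount of 10 (0.96), under rescaling to a common 75th percentile (0.95) and without control replicate 1 (0.93) or mutant replicate 3 (0.97). *Mob1a* rose from 841 ± 91.4 to 1340 ± 176 (0.67, adjusted p = 0.00813), and *Lats1*, the other LATS kinase, from 1138 ± 257 to 1871 ± 498 (0.71, adjusted p = 0.0354), with 2 other genes on its strand. *Lats1* lost its call without control replicate 2 or 3 or mutant replicate 3, in eBayes without trend and with a replicate block (limma adjusted p from 0.0644 to 0.115). In the MST kinases *Stk3* and *Stk4* and their partner *Sav1* the log2 fold changes were 0.05, 0.21 and 0.04, with adjusted p-values from 0.327 to 0.812.

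Of 20 upstream regulators, 2 rose, 3 fell and 15 were not called, which is 25% called beside 35.0% of all tested genes. *Ajuba*, whose LIM-domain protein inhibits LATS kinases, rose from 3006 ± 44.4 to 3932 ± 418 (log2 fold change 0.38, adjusted p = 0.0221), and *Taok3*, a kinase of the TAO family, by 0.50 (adjusted p = 0.0192). *Taok2* of the same family fell by 0.38 on the log2 scale (adjusted p = 0.0242), *Wwc2*, of the KIBRA family, by 0.64 (adjusted p = 0.0156) and *Map4k2*, a MAP4 kinase, by 0.85 (adjusted p = 0.00681). Of these, *Map4k2* kept its call under every alternative. *Ajuba* lost it without control replicate 2 or 3 or mutant replicate 1 or 2 and in eBayes without trend (limma adjusted p up to 0.09), and *Taok3* without control replicate 2 or 3 or mutant replicate 1 or 3 (up to 0.0697). *Taok2* lost it without control replicate 1 or 2 or mutant replicate 2 or 3, in eBayes without trend and with libraries rescaled to a common total (up to 0.156), and *Wwc2* without control replicate 2 and with a common total (up to 0.0534). *Nf2*, the gene of the tumor suppressor merlin, was 4019, 4274 and 4359 against 3840, 3239 and 3364. All mutant-labelled values of *Nf2* lay below the controls, yet its log2 fold change of -0.28 had an adjusted p of 0.0601. None of the 20 passed the study's limits, which 24.2% of all tested genes did.

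Vestigial-like proteins bind TEADs in place of YAP and TAZ. *Vgll3* fell from 5216 ± 662 to 3323 ± 571 (log2 fold change -0.66, adjusted p = 0.0098, and 0.0562 in limma's eBayes without trend). *Vgll4*, a repressor of YAP-TEAD activity, was lower in every mutant-labelled library, at 642 to 807 against 850 to 1076, with an adjusted p of 0.0566. *Vgll1* had no reads in any library and was not tested. *Vgll2*, a gene of skeletal muscle, was 54.4, 5.67 and 50.7 against 119, 64.6 and 235 (2.20, adjusted p = 0.0781) and passed the study's limits without an adjusted call, which it gained in DESeq2 (adjusted p = 0.0265) and with a replicate block (0.0204).

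Genes of SCs that are known to depend on YAP/TAZ fell, 5 of 5, and 4 of them passed the study's limits, beside 16.0% and 24.2% of all tested genes. *Itga6* and *Itgb4* encode the laminin receptor integrin of SCs, and *Dag1* encodes dystroglycan, another laminin receptor. *Itgb4* was 7610, 10342 and 9575 in the control-labelled and 3089, 2957 and 2821 in the mutant-labelled libraries (log2 fold change -1.62, SE 0.12, adjusted p = 4.35e-05). *Itga6* went from 35474 ± 551 to 12437 ± 2592 (-1.53, adjusted p = 0.000132) and *Dag1* from 122494 ± 14235 to 44245 ± 11811 (-1.49, adjusted p = 0.000419). The myelin gene *Pmp22* (-3.58) and *Egr2* (-0.72, with an adjusted p of 0.0593 in limma's eBayes without trend), a driver of myelination, complete the list. SC markers went the same way: 5 of 6 fell, with sums of 79661 to 84486 in control-labelled and 27714 to 40068 in mutant-labelled libraries. The part of this in the fall of the laminin receptors was not tested. *Egr2* and the SC marker *Sox10* (-0.71) fell by less than 2-fold. The paper, with its 2-fold limit, lists neither as significantly altered by RNA-seq, and it found both unaltered by RT-qPCR at P4.

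For markers of other cell types, the counts are to be read beside the 19.0% of all tested genes that rose and the 16.0% that fell. Of the fibroblast markers, 2 of 5 fell (sums of 1777660 to 2106500 and 718507 to 1061210). These were the collagens *Col1a1* (means of 1243380 and 592563) and *Col3a1* (678876 and 292760), which make up most of the sums. *Dcn* (45406 and 45217), *Pdgfra* (758 and 835) and *Lum* (12741 and 9520) were not called. Of the macrophage markers 2 of 5 rose and 1 fell (9943 to 12312 and 9936 to 12009). In endothelial cells 1 of 5 rose (12507 to 19207 and 17514 to 23399), and in perineurial cells 1 of 3 (7697 to 9612 and 10814 to 12757). The perineurial gene that rose was *Cldn1* (means of 7100 and 10309). *Slc2a1* was lower in every mutant-labelled library without a call (1422 and 1174), and *Lypd2* was alike (220 and 216). T and NK cell markers were low, with sums of 41.8 to 63.3 and 154 to 340. Of these 5 markers 3 rose, but *Cd8a* and *Nkg7* among them passed the filter through the mutant-labelled libraries alone. Adipocyte markers were not called (0 of 5), but their sums were uneven, at 1833, 7.56 and 552.5 in the control-labelled and 23.3, 6950 and 13.8 in the mutant-labelled libraries. No list had a marker at or under 3 reads in all libraries. Their part in the values of the YAP/TAZ-TEAD genes was not tested.

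Skeletal muscle markers were uneven between libraries. In total 4 of 5 rose, with sums of 28319, 5187 and 21221 in the control-labelled and 82948, 34500 and 267697 in the mutant-labelled libraries. *Vgll2* had the same order within each genotype. *Tead1* had the same order within the mutant-labelled libraries, with replicate 3 highest and replicate 2 lowest in both. *Ankrd1* differed in that mutant replicate 2 (122) was above mutant replicate 1 (80.7). The part of muscle in these values was not tested. *Tead4*, a gene of forming muscle, was lowest in mutant replicate 2, the mutant-labelled library with the lowest muscle sum and also the lowest sum of SC markers. Among the controls, *Tead4* was highest in replicate 1, which had the highest muscle sum and the lowest sum of SC markers. Control replicate 2, with the lowest muscle sum (5187), was close to it in *Tead4* (507 against 539) and above control replicate 3 (346). Among the mutant-labelled libraries *Tead4* was highest in replicate 1, which had the highest sum of SC markers.

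**Figure D4:**
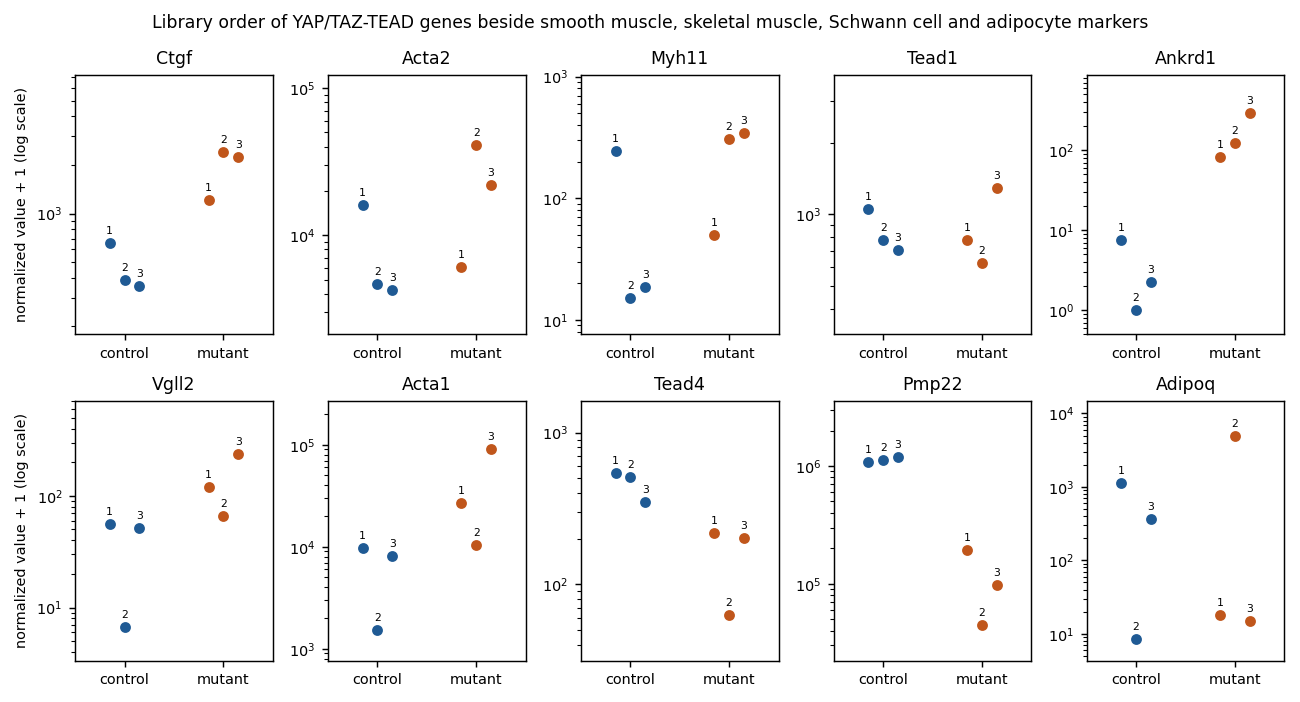
Normalized value plus 1 (y axis, log scale) of *Ctgf*, *Tead1*, *Tead4*, *Ankrd1* and *Vgll2* beside markers of smooth muscle (*Acta2*, *Myh11*), skeletal muscle (*Acta1*), SCs (*Pmp22*) and adipocytes (*Adipoq*), with points numbered by replicate. *Ctgf* is lowest in mutant replicate 1 of its genotype as *Acta2* and *Myh11* are, and *Tead1* and *Vgll2* are highest in mutant replicate 3 as *Acta1* is.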

How the data were processed

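Libraries of 6 sciatic nerves, each from a separate animal at P4, were grouped by their labels. According to the methods and the submitters' processing notes, oriented cDNA was mapped to mm10 with STAR 2.4.0, and reads were counted on constitutive regions of each gene. The authors deposited a normalized signal, gene counts divided by DESeq size factors. Strand use in counting is not given in the sources used here, so antisense reads may be included. Dividing by the value of 1 read gave whole reads (within 0.01) for 100% of values, and most low counts were even, so both mates of a pair were counted. Floors and counts cover counting error only.

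limma 3.58.1 (lmFit, eBayes with trend; R 4.3.3) was fitted to log2(value + 1), which understates changes of low genes, for 25802 genes with a mean of at least 10 in a genotype. Alternatives used edgeR 4.0.16 and DESeq2 1.42.0 on the recovered reads. The fit was tested on simulated data. Exon lengths came from GENCODE vM21 and promoters from RefSeq (GRCm38.p6). Genes and lists were chosen with earlier results of these data known. The rule named the 10 genes and, of each other list, at most the 6 largest changes of at least 2-fold with an adjusted p at or under 0.05, and genes left untested. Other genes of these lists were named after their values were seen.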

Additional observations from a re-analysis of the deposited data

How the results depend on the processing

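The 4 counts below, the 21 genes named by rule and 16 other genes of the lists (15 with an adjusted call and *Vgll2*, which passed the study's limits alone) were recomputed under 11 other settings and in 6 fits that each lacked 1 library, and the *Yap1* to *Wwtr1* ratio and the *Tead* shares in the latter. The remaining genes of the lists and the cell type markers were not. The count of the 10 genes past the study's limits was 3 throughout, and that with an adjusted p at or under 0.05 was 3 to 6 (3 to 5 with a library left out). The count of general targets, 15, was 13 to 17 (13 to 15 with a library left out). The count of Hippo regulators, 9, was 5 in eBayes without trend, 9 to 12 in the other settings, and 4 to 11 with a library left out, the lowest without control replicate 2; fewer samples or another variance estimate enter these fits, and the cause was not tested further. Of 170 values for the 10 genes, 157 kept direction and side of the threshold, 3 lost and 4 gained a call, and 6 changed sign. *Lats2* turned to 0.15 with libraries rescaled to the same total, a setting that moves the median of all genes from 0.03 to 0.20, so changes there are read against that shift. *Yap1* (0.34, adjusted p = 0.0247) and *Tead2* (0.34, adjusted p = 0.0474) were called there in limma. *Tead1* turned to -0.030 with libraries rescaled to the same 75th percentile, where *Tead3* was called (-0.35, adjusted p = 0.0497). With a library left out, *Lats2* ran from -0.069 to 0.046, *Tead1* from -0.26 to 0.27, *Tead4* from -2.02 to -1.11, the *Yap1* to *Wwtr1* difference from 0.34 to 0.51 and the difference in *Tead1* share from -1.50 to 1.70 percentage points. *Ankrd1*, *Gadd45a*, *Foxf2*, *Myof*, *Igfbp3*, *F3*, *Mob1b*, *Pmp22*, *Itgb4*, *Itga6* and *Dag1* kept direction and their adjusted call under every alternative. Of 272 values for the 16 other genes, 231 kept direction and side of the adjusted threshold, 39 lost the adjusted call, 2 gained it (both in *Vgll2*), and none changed sign. The differences in *Tead2*, *Tead3* and *Tead4* share ran from 4.72 to 8.97, from -6.55 to -4.46 and from -2.79 to -1.95 percentage points. In the paired analysis with a replicate block, the counts were 3, 4, 14 and 9 for the limits, the 10 genes, the targets and the regulators. Same-numbered libraries had correlations of deviations of -0.06, -0.06 and 0.01, and other pairs of -0.02 to 0.07. Libraries of the same number thus did not deviate together, but so few libraries cannot decide whether animals were paired.

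With 3 animals a genotype, an exact test cannot go below 0.1. *Ankrd1*, *Vgll2*, *Foxf2* and *Amot* rest on few reads, and *Ankrd1* had 0 reads in control replicate 2.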
